A study of Mus musculus with 56 samples.

Results

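The mouse mitochondrial genome encodes 37 RNAs, and their counts were followed here through motor neurons and whole spinal cord of TDP-43 mice. The members are all genes whose mouse symbol begins with mt-, which were 37 of the 43629 genes in the count tables: 2 ribosomal RNA (rRNA) genes, 22 transfer RNA (tRNA) genes and 13 protein genes. Of these, 28 are encoded on the heavy strand and 9 on the light strand, namely 8 tRNA genes and mt-Nd6. The rule for members is the symbol alone and uses no measured value.

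The 56 libraries came from mice described by the study as female and congenic on C57BL/6J. All carried Chat bacTRAP, a transgene in which the Chat promoter drives the ribosomal protein L10a fused to EGFP, so that ribosomes of cholinergic neurons can be pulled down (MN-TRAP). The genotypes were Chat bacTRAP alone, Chat bacTRAP; hTDP-43WT and Chat bacTRAP; hTDP-43A315T, written hTDP-43WT and hTDP-43A315T from here on, in which the human wild-type or A315T mutant TDP-43 is expressed from the prion promoter. Mice were 9 or 14 weeks old, and MN-TRAP RNA (25 libraries) and RNA of the whole lysate (spinal cord, 31 libraries) gave 12 groups of 3 to 6 libraries. The labels call the tissue cervical, and the study speaks of the spinal cord. The cord RNA was taken from a portion of the lysates, so that MN-TRAP and cord libraries may share animals, but which ones do is not given and libraries were treated as independent. The labels do not say that each library of a group is a separate animal, and p-values measure the spread between these libraries.

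Mitochondrial DNA is transcribed into long RNAs from both strands, in which tRNAs lie between most of the other genes and are cut out to free them. The protein genes encode subunits of respiratory complexes I (mt-Nd1 to mt-Nd6 and mt-Nd4l), III (mt-Cytb) and IV (mt-Co1 to mt-Co3) and of the ATP synthase (mt-Atp6 and mt-Atp8). They are translated inside the organelle by mitochondrial ribosomes, which are built on the 2 mitochondrial rRNAs and do not contain L10a. In mammals most mitochondrial mRNAs and the rRNAs carry short poly(A) tails, while mature tRNAs do not. The libraries were made from polyadenylated RNA with a kit that does not mark the strand, so that the strand below is that of the annotated gene and not of the read.

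Total counts ran from 472447 to 255802240 in MN-TRAP (median 19553070) and from 17493897 to 86654485 in cord (median 40384236). In 3 MN-TRAP libraries they were below 3000000: hTDP-43WT 9 weeks replicate 1 and Chat bacTRAP 14 weeks replicate 2 and 9 weeks replicate 3. All 8 motor neuron markers, among them Chat and Isl1, were called higher in MN-TRAP than in cord in each genotype (median log2 changes 2.95 to 3.32), and all 10 oligodendrocyte markers, among them Mbp and Mog, were called lower. Another 3 control libraries stood apart from their labels. The pseudogene Lamr1-ps1, which was counted in all 18 hTDP-43A315T libraries at 0.48 to 2.93 CPM (counts per 1000000 counts assigned to genes) and otherwise with at most 1 count per control library, stood at 1.69 CPM in the library labelled hTDP-43WT 14 weeks MN-TRAP replicate 5, at 1.11 CPM in that labelled hTDP-43WT 9 weeks MN-TRAP replicate 3 and at 1.34 CPM in that labelled Chat bacTRAP 9 weeks MN-TRAP replicate 4. The first and the last of these had nearly the gene shares of hTDP-43A315T 14 weeks replicate 3 and 9 weeks replicate 5, with a chi-square per gene of 1.30 and 1.84 against 8.42 for the next of 1378 pairs. Where leaving out these 3 libraries changed a call, its direction or a value by much, both values are given.

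The following tRNA genes carry most of the tRNA counts or, for mt-Ty, none. They are shown because counts fell so unevenly over genes of one kind. The sequences are those of the RNA strand in the GENCODE M21 transcripts (GRCm38, mitochondrial chromosome), written with T for U and with the anticodon in capitals. mt-Tp (proline, light strand) lies at 15356 to 15422, mt-Tl1 (leucine, heavy strand) at 2676 to 2750, mt-Tc (cysteine, light strand) at 5192 to 5257 and mt-Ty (tyrosine, light strand) at 5260 to 5326.
mt-Tp: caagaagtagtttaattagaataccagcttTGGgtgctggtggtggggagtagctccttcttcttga
mt-Tl1: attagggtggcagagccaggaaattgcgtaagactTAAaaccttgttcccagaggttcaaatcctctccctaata
mt-Tc: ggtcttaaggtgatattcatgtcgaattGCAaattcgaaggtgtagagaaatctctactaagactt
mt-Ty: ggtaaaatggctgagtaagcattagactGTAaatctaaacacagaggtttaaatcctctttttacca

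Over all libraries the members held 41292240 counts, of which the protein genes had 85.2%, the rRNA genes 14.6% and the tRNA genes 0.218%. No count fell on 9 members in any library, namely the tRNA genes mt-Tw, mt-Ty, mt-Ts1, mt-Td, mt-Tk, mt-Tg and mt-Th and the protein genes mt-Atp8 and mt-Nd4l. Counts in all 56 libraries were found for 9 other members, both rRNA genes and the protein genes mt-Nd1, mt-Nd2, mt-Co1, mt-Nd4, mt-Nd5, mt-Nd6 and mt-Cytb. The filter on low counts left 25 members, 2 rRNA, 8 protein and 15 tRNA genes, of which 7 lie on the light strand. The other 3 members with counts, mt-Co2 (47 counts in all), mt-Atp6 (40) and mt-Co3 (50), were not tested.

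Along the genome the protein genes therefore fell into high and low stretches. Per kilobase of gene the mean level in cord was 5994 CPM for mt-Cytb, 5496 for mt-Nd1, 3509 for mt-Co1, 3178 for mt-Nd2, 2338 for mt-Nd4, 1860 for mt-Nd6 and 836 for mt-Nd5. This order is a description and was not tested. The SD over the 31 cord libraries was large (5233 CPM on a mean of 6857 CPM for mt-Cytb, not per kilobase). The genes varied together over these libraries, so that this SD does not measure how firm the order is. Levels were divided by the full gene length, also for mt-Nd4 and mt-Co1, which share sequence with nuclear transcripts (given below). Between mt-Co1 and mt-Nd4 every gene was near 0: per kilobase in cord mt-Co2 stood at 0.0601 CPM, mt-Atp6 at 0.064, mt-Co3 at 0.0247 and mt-Nd3 at 0.894, and mt-Atp8 and mt-Nd4l at 0. These 6 genes lie on the heavy strand, like mt-Co1 and mt-Nd4 on either side.

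**Figure D1:**
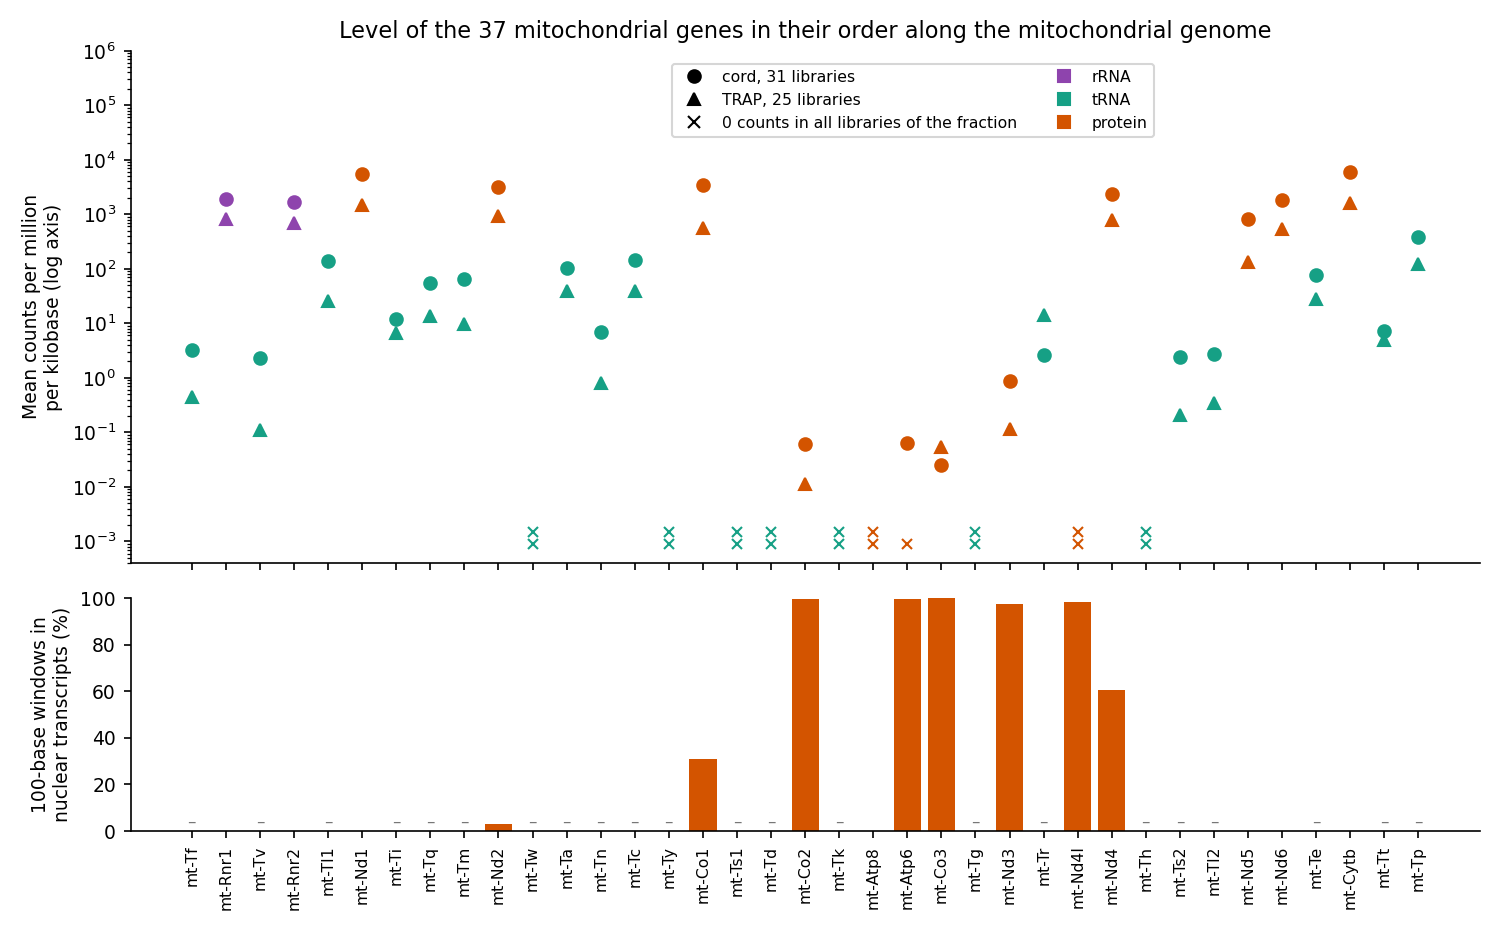
Top, mean CPM per kilobase of gene (log axis) of the 37 genes in genome order, with circles for the 31 cord libraries, triangles for the 25 MN-TRAP libraries and crosses for 0 counts in all libraries of a fraction. Bottom, percent of the gene's 100-base windows that occur unchanged in annotated nuclear transcripts, with a dash for genes shorter than a window: the stretch from mt-Co2 to mt-Nd4l, where 5 of 6 protein genes reach 97.6 to 99.9%, is the stretch at or near 0 in the top panel.

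Reads from this stretch can also match the nuclear genome. Of all 100-base windows in a gene, those found unchanged in annotated nuclear transcripts made up 99.5% for mt-Co2, 99.5% for mt-Atp6, 99.9% for mt-Co3, 97.6% for mt-Nd3 and 98.5% for mt-Nd4l. The share was 60.8% for mt-Nd4, 30.8% for mt-Co1 and 3.19% for mt-Nd2, and 0 for the other protein and rRNA genes, mt-Atp8 included, which is at 0 counts without such windows. According to the study's methods counting used standard parameters, under which reads that map to several places are not counted. The nuclear transcripts are mainly genes on the minus strand of chromosome 1 (GRCm38), among them Gm28437 (24613189 to 24613971), identical to mt-Co3 over 783 bases, Gm28661 (24614885 to 24615565), identical to mt-Co2 over 681, Gm10925 (24613974 to 24614651), identical to mt-Atp6 over 678, and Gm28439 (24611535 to 24612410), identical to the first 876 bases of mt-Nd4. These 4 nuclear genes were themselves at 186 to 366 counts over all libraries. Gm29216 (24615706 to 24616197) matches bases 1054 to 1545 of mt-Co1 with 6 mismatches in 492 bases. The first 60 bases of mt-Co3 and of its nuclear match are shown beside those of mt-Cytb and mt-Nd6, which have no such window, with mt-Co3 at 8607 to 8666, Gm28437 at 24613912 to 24613971 (minus strand), mt-Cytb at 14145 to 14204 and mt-Nd6 at 14011 to 14070 (minus strand).
mt-Co3: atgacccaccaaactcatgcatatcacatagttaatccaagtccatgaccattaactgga
Gm28437: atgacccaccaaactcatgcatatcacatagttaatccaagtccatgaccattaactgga
mt-Cytb: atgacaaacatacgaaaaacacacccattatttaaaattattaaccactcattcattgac
mt-Nd6: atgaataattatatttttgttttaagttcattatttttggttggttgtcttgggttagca
The part of the shared sequence in the low counts of this stretch was not tested. mt-Atp8 and the tRNA genes mt-Td, mt-Tk and mt-Tg, which lie in it, were at 0 counts with no 50-base window found in annotated nuclear transcripts. Nuclear sequence outside annotated transcripts was not searched, so that copies of these genes there would have been missed. It includes the bases of chromosome 1 between Gm28661, which starts at 24614885, and Gm10925, which ends at 24614651. Their matches mt-Co2 and mt-Atp6 lie on either side of mt-Tk and most of mt-Atp8.

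Among the tRNA genes those annotated on the light strand led. These 8 genes held 75.9% of the 89987 tRNA counts and the 14 heavy-strand genes 24.1%. mt-Tp, printed above, had 33988 counts (37.8% of the tRNA counts), followed by mt-Tl1 with 13104, mt-Tc with 12387, mt-Ta with 9247, mt-Te with 7168, mt-Tm with 5633 and mt-Tq with 4947. The other 8 tRNA genes with counts had 151 (mt-Ts2) to 1200 (mt-Ti). Most tRNA genes abut their neighbours, while mt-Tp has no gene after it and mt-Tc lies 32 bases from mt-Tn. The part of this spacing in the lead of the light-strand genes was not tested. Counts from mature tRNA and from uncut transcripts cannot be told apart here.

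The share of all counts that fell on mitochondrial genes gives the part of this RNA in a library and not a recovered amount. In cord it was 0.98, 1.03, 2.61, 3.45, 4.47 and 5.41% in Chat bacTRAP at 9 weeks and 1.14, 5.52, 6.42, 7.65 and 8.53% at 14 weeks. In hTDP-43WT cord it was 1.11, 1.29, 1.69, 4.07, 4.31 and 10.1% at 9 weeks and 2.09, 2.23, 2.45, 2.70 and 5.27% at 14 weeks. In hTDP-43A315T cord it was 0.965, 0.982, 1.30, 1.42 and 1.42% at 9 weeks and 1.08, 1.42, 1.57 and 1.72% at 14 weeks. The hTDP-43A315T cord libraries were thus low and close together, while those of the controls ran from 0.98 to 10.1%.

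MN-TRAP libraries held less of it. The share was 0.0637, 0.143, 0.270 and 2.98% in Chat bacTRAP at 9 weeks and 0.465, 0.553, 0.802 and 5.81% at 14 weeks, where 0.0637% is the library labelled replicate 4. In hTDP-43WT it was 0.200, 0.312 and 1.32% at 9 weeks and 0.149, 0.483, 0.796, 0.907 and 5.58% at 14 weeks, where 0.312% and 0.149% are the libraries labelled replicates 3 and 5. In hTDP-43A315T it was 0.0398, 0.0483, 0.0649, 0.0674 and 0.0795% at 9 weeks and 0.0977, 0.115, 0.131 and 0.151% at 14 weeks. In Chat bacTRAP at both ages and in hTDP-43WT at 14 weeks, 1 library was far above the others of its group. The hTDP-43A315T libraries were below the control libraries of their age, except that the libraries labelled Chat bacTRAP 9 weeks replicate 4 and hTDP-43WT 14 weeks replicate 5, both with Lamr1-ps1 counts, lay within their range.

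**Figure D2:**
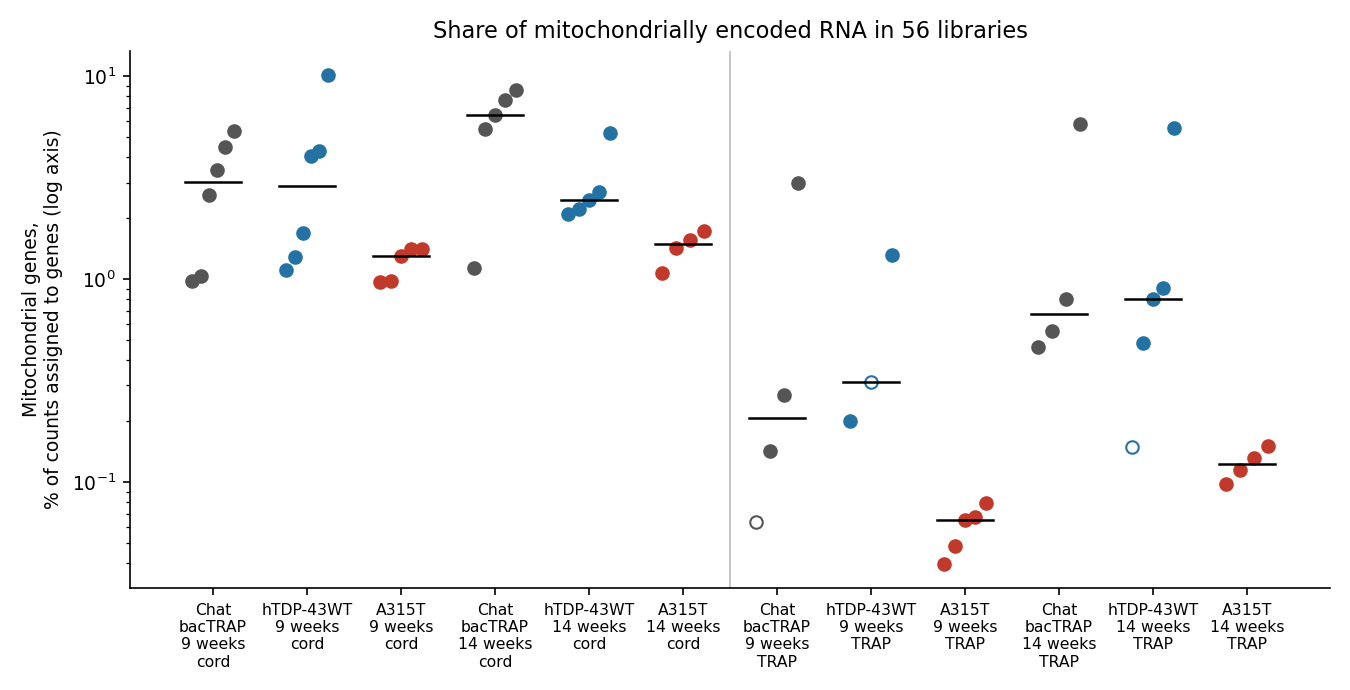
Mitochondrially encoded counts as percent of all counts assigned to genes (log axis) in the 56 libraries, 1 point per library, with a bar at the group median; open circles are the 3 control libraries with Lamr1-ps1 counts. Points of hTDP-43A315T MN-TRAP lie between 0.0398 and 0.151%, those of hTDP-43A315T cord between 0.965 and 1.72%.

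Within each genotype MN-TRAP was lower than cord, as tested over both ages on the log2 share by an exact two-sided permutation test, with Benjamini-Hochberg adjustment over 21 comparisons of shares. In hTDP-43A315T the mean was 0.0883% ± 0.038 (SD, n = 9) against 1.32% ± 0.262 (n = 9), 16.01-fold lower by the mean logs, with no overlap (exact permutation p = 4.11e-05, the smallest this design allows, adjusted 0.000864). In hTDP-43WT it was 4.40-fold lower (n = 8 and 11, exact permutation p = 0.00269, adjusted 0.0262), and in Chat bacTRAP 6.04-fold lower (n = 8 and 11, exact permutation p = 0.00374, adjusted 0.0262), with overlap in both. Without the 3 libraries that carry Lamr1-ps1 counts the log2 difference moved from -2.14 to -1.62 in hTDP-43WT (adjusted p = 0.0625) and from -2.59 to -2.15 in Chat bacTRAP (adjusted p = 0.0488), in the same exact permutation test.

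Single genes were compared in edgeR's quasi-likelihood test, fitted to 18838 genes in 56 libraries, where a gene counts as called if its Benjamini-Hochberg adjusted p is under 0.05 and its level differs 2-fold or more. Every member called in any comparison was lower in the first group named. Between MN-TRAP and cord 24 of the 25 tested members were called lower in hTDP-43A315T, where 24.1% of all genes tested were called lower. It was 13 of 25 in hTDP-43WT, against 19.8% of all genes, and 16 of 25 in Chat bacTRAP, against 22.8%. The count in hTDP-43WT was 25 without its MN-TRAP replicate 2 of 14 weeks and 8 without the libraries that carry Lamr1-ps1 counts, and that in Chat bacTRAP was 10 without its MN-TRAP replicate 4 of 9 weeks. Fewer members passed the filter with the MN-TRAP libraries alone (given below). The other members entered the test through their cord counts, which largely fixed a lower value for them. Members with 0 counts in all MN-TRAP libraries of the genotype made up 2 of the calls in hTDP-43A315T, 4 in hTDP-43WT and 0 in Chat bacTRAP. The median log2 change of the members was -3.49, -1.57 and -1.66 respectively, beside medians over all genes of -0.10, -0.15 and -0.21. With median-ratio in place of TMM scaling those medians of all genes were -0.22, -0.24 and -0.29, and 24, 13 and 16 members were again called, all lower.

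mt-Cytb, the gene with the most counts, had a level in MN-TRAP of 88.9, 126, 142, 149 and 160 CPM at 9 weeks and 159, 216, 282 and 309 CPM at 14 weeks in hTDP-43A315T. In cord of that genotype it stood between 2315 and 4095 CPM in 9 libraries, a log2 change of -3.80 (SE 0.67, edgeR adjusted p = 4.51e-06), with no overlap. The change was -1.57 (SE 0.63, edgeR adjusted p = 0.0339) in hTDP-43WT and -1.52 (SE 0.61, edgeR adjusted p = 0.0318) in Chat bacTRAP. In these controls the highest MN-TRAP libraries, at 10594 CPM in hTDP-43WT and 14630.5 CPM in Chat bacTRAP, overlapped with cord.

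The protein genes moved much alike, with mt-Nd5 and mt-Co1 at the lower end of the well-counted ones. mt-Nd5, a subunit of complex I, changed by -4.29 (SE 0.67) in hTDP-43A315T, -2.20 (SE 0.64) in hTDP-43WT and -2.23 (SE 0.61) in Chat bacTRAP on the log2 scale, called in each. mt-Co1, the catalytic subunit of complex IV, changed by -4.05, -2.12 and -2.22, mt-Nd1 by -3.49, -1.56 and -1.52 and mt-Nd2 by -3.68, -1.50 and -1.46, in the same order and called in each. mt-Nd4 was called in hTDP-43A315T alone (-3.44), with values of -1.20 and -1.24 in hTDP-43WT and Chat bacTRAP. mt-Nd3 had the lowest fitted value of this class in both controls but few counts. It had 115 counts in hTDP-43WT cord and 0 in MN-TRAP, at least 27.9-fold lower with a floor of 3 counts over the group, and 13 counts in Chat bacTRAP MN-TRAP, all at 9 weeks.

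Both rRNA genes were called lower in hTDP-43A315T only, which does not show that the genotypes differ. mt-Rnr2, the large-subunit rRNA, stood at 32.0, 32.9, 54.4, 75.8 and 116 CPM in hTDP-43A315T MN-TRAP at 9 weeks and at 121, 144, 182 and 187 CPM at 14 weeks, and at 592 to 1167 CPM in the 9 cord libraries. The log2 change was -2.77 (SE 0.65, edgeR adjusted p = 0.000272) for mt-Rnr2 and -2.70 (SE 0.65, edgeR adjusted p = 0.000399) for mt-Rnr1, the small-subunit rRNA. In hTDP-43WT the values were -0.78 (SE 0.62, edgeR adjusted p = 0.289) and -0.76 (edgeR adjusted p = 0.306), and in Chat bacTRAP -1.14 (SE 0.61, edgeR adjusted p = 0.106) and -1.14 (edgeR adjusted p = 0.108).

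Of the 15 tRNA genes tested, several of them with few or 0 counts in MN-TRAP, 14 were called lower in hTDP-43A315T, 7 in hTDP-43WT and 9 in Chat bacTRAP. mt-Tp was at 0.104, 0.768, 0.776, 0.816 and 2.64 CPM in hTDP-43A315T MN-TRAP at 9 weeks and at 0.438, 1.12, 1.40 and 1.47 CPM at 14 weeks, against 6.81 to 14.6 CPM in cord. Its log2 change was -2.92 (SE 0.68, edgeR adjusted p = 0.000233) there, -1.27 (SE 0.65, edgeR adjusted p = 0.0972) in hTDP-43WT and -1.41 (SE 0.60, edgeR adjusted p = 0.043) in Chat bacTRAP. mt-Tl1 changed by -3.47, -1.89 and -1.95 in the 3 genotypes and was called in each, and mt-Tc by -2.79, -0.96 and -1.66, not called in hTDP-43WT. The lowest called value was -5.88 (SE 0.94) for mt-Tm, the methionine tRNA, in hTDP-43A315T, and in hTDP-43WT mt-Tf had 0 counts in MN-TRAP against 120 in cord, at least 29.1-fold lower. In Chat bacTRAP mt-Tl2 had the lowest called value but only 3 counts in MN-TRAP.

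mt-Tr, the arginine tRNA, was the member not called in hTDP-43A315T and the only tested member with a higher fitted value in MN-TRAP of Chat bacTRAP (0.80, SE 1.33, not called). That value comes from the Chat bacTRAP library of 14 weeks labelled replicate 2, a library below 3000000 counts, which held 57 of the 60 mt-Tr counts of all MN-TRAP libraries.

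**Figure D3:**
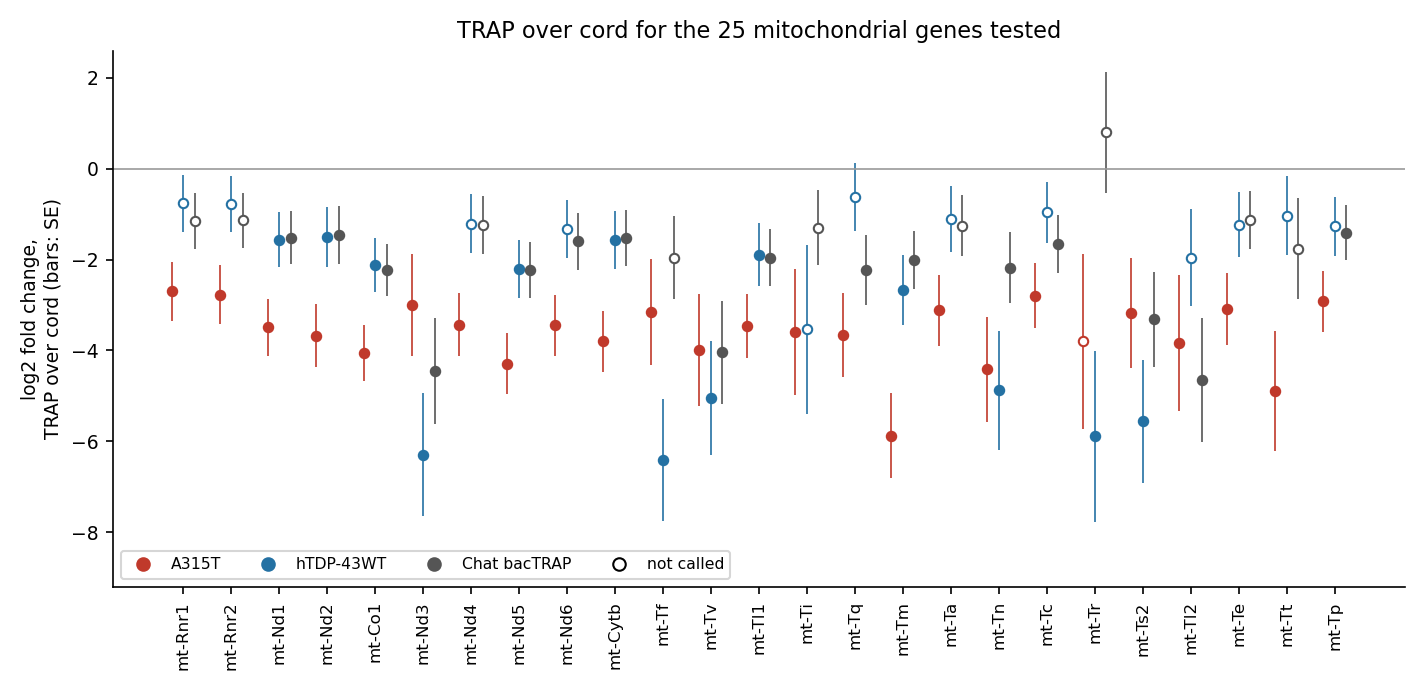
Log2 fold change of MN-TRAP over cord (y axis, points with SE bars derived from edgeR's F statistic) of the 25 tested genes in the 3 genotypes, with filled points for called genes and open points for genes not called. Points of hTDP-43A315T lie between -5.88 and -2.70; the only point above 0 is mt-Tr in Chat bacTRAP at 0.80.

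Nuclear genes of the same complexes went the other way. Of 30 nuclear subunits of complexes I, III, IV and V, 17, 14 and 15 were called higher in MN-TRAP than in cord in hTDP-43A315T, hTDP-43WT and Chat bacTRAP, and 0 lower, with median log2 changes of 1.14, 0.98 and 0.96. Over all genes tested 13.3, 9.80 and 9.25% were called higher. Ndufa4 (2.04, 2.04 and 1.87) and Cox6c (2.12, 1.93 and 1.82), both linked to complex IV, had the smallest adjusted p of the list in edgeR. Of 29 nuclear genes of mitochondrial RNA processing and decay, Slirp, which binds mitochondrial mRNAs, was called higher in each genotype (2.31, 2.22 and 2.08), and at most 2 others of the list were called in a genotype. Among 12 translation factors of the organelle 0 were called between MN-TRAP and cord.

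The difference between MN-TRAP and cord was then compared between genotypes. None of the 25 members was called in edgeR's interaction test for hTDP-43A315T against Chat bacTRAP, where 0.664% of all genes were called. Against hTDP-43WT it was 0 of 25 as well (0.626%). At an unadjusted p below 0.05 in edgeR there were 8 and 12 members, with median log2 differences of -1.85 and -1.93. The share of all genes at that p is not given, here or in the comparisons below. The rRNA and protein genes varied together (median r of 0.96 in MN-TRAP and 0.94 in cord), so that members at that p are not separate results. For hTDP-43WT against Chat bacTRAP it was also 0 of 25 (0.403% of all genes, 2 members at an unadjusted p below 0.05, median 0.02). Without the 3 libraries that carry Lamr1-ps1 counts 9 members were called against hTDP-43WT and 1 against Chat bacTRAP, and DESeq2 called 0, 2 and 1 for the 3 tests in the order against hTDP-43WT, against Chat bacTRAP, and hTDP-43WT against Chat bacTRAP.

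Between genotypes in MN-TRAP, the comparison the study was made for, mitochondrial RNA was lower in hTDP-43A315T than in both controls at both ages. At 14 weeks the share was 8.58-fold lower than in Chat bacTRAP, with no overlap (n = 4 and 4, exact permutation p = 0.0286, the smallest this design allows, adjusted 0.0741), and 6.40-fold lower than in hTDP-43WT (n = 4 and 5, exact permutation p = 0.0238, adjusted 0.0714). At 9 weeks it was 5.03-fold lower than in Chat bacTRAP (n = 5 and 4, exact permutation p = 0.0317, adjusted 0.0741) and 7.47-fold lower than in hTDP-43WT, with no overlap (n = 5 and 3, exact permutation p = 0.0179, the smallest possible, adjusted 0.0625). None of these passed the adjustment over the 21 comparisons, also without the libraries that carry Lamr1-ps1 counts (log2 differences of -3.28 against hTDP-43WT at 14 weeks and -3.06 and -3.14 against Chat bacTRAP and hTDP-43WT at 9 weeks). Without those libraries hTDP-43WT at 9 weeks kept only MN-TRAP replicates 1 and 2. Groups this small bound p from below, so that not passing does not show that the shares are alike. hTDP-43WT and Chat bacTRAP overlapped at both ages (exact permutation p = 0.754 and 0.714, n = 3 to 5, and the log2 difference at 14 weeks moved from -0.42 to 0.18 without the libraries that carry Lamr1-ps1 counts). The 3 genotype comparisons of an age share libraries and are not independent of each other.

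By gene, 14 of 25 members were called lower in hTDP-43A315T than in Chat bacTRAP at 14 weeks, where edgeR called 5.17% of all genes lower, and 13 of 25 lower than in hTDP-43WT, against 4.67% of all genes. At 9 weeks 8 of 25 were called lower than in Chat bacTRAP (0.536% of all genes) and 9 of 25 lower than in hTDP-43WT (2.04% of all genes). With no filter on low counts the first of these was 0. Median log2 changes of the 25 members were -3.52, -3.65, -3.64 and -3.24 in this order, beside -3.58 to -4.05 for mt-Rnr2. With the MN-TRAP libraries fitted alone by edgeR, where 17 members passed the filter, 0 of the 17 were called in each of the 4 comparisons, with 13, 16, 16 and 13 at an unadjusted p below 0.05 and medians of -3.73, -3.85, -3.70 and -3.30. The members varied more between replicates than other genes, with a median biological coefficient of variation of 0.832 against 0.313 over all genes tested.

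Both rRNA genes were called in all 4 comparisons. mt-Rnr2 at 14 weeks stood at 121 to 187 CPM in hTDP-43A315T (values above), at 486, 675, 1491 and 5356 CPM in Chat bacTRAP and at 187, 710.4, 739, 1266 and 9233 CPM in hTDP-43WT. The lowest hTDP-43WT value, 187 CPM, is that of the library labelled replicate 5 and lies barely above the highest hTDP-43A315T value, and the other control libraries were clearly above. The log2 change of mt-Rnr2 was -3.58 (SE 1.00, edgeR adjusted p = 0.0142) against Chat bacTRAP and -3.95 (SE 1.00, edgeR adjusted p = 0.0118) against hTDP-43WT. At 9 weeks it was -4.05 (SE 0.93, edgeR adjusted p = 0.0366) and -3.62 (SE 0.95, edgeR adjusted p = 0.0285).

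Of the protein genes 7 of the 8 tested were called at 14 weeks against each control, the exception being mt-Nd3, which had 0 counts in all 13 MN-TRAP libraries of that age. mt-Nd2, a complex I subunit, had the lowest values of its class, -4.33 (SE 1.06, edgeR adjusted p = 0.00622) against Chat bacTRAP and -4.04 (SE 1.03, edgeR adjusted p = 0.0124) against hTDP-43WT. Its level ran from 55.9 to 142 CPM in hTDP-43A315T, from 523 to 7136 CPM in Chat bacTRAP and from 141 to 6461 CPM in hTDP-43WT. mt-Nd6, the only protein gene of the light strand, changed by -3.88 (SE 1.01) and -3.85 (SE 0.99), close to mt-Cytb of the heavy strand at -4.16 (SE 1.01) and -3.71 (SE 0.97). For mt-Nd6 the levels were 25.02, 39.0, 44.5 and 46.1 CPM in hTDP-43A315T, 135, 153, 214 and 1899 CPM in Chat bacTRAP and 48.5, 201, 209, 234 and 2078 CPM in hTDP-43WT, so that hTDP-43A315T was below every control library. At 9 weeks 5 of 8 were called against Chat bacTRAP, with mt-Nd2 the lowest called (-3.96), and 6 of 8 against hTDP-43WT, with mt-Nd4 the lowest called (-3.58).

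Of the tRNA genes fewer were called in this comparison, but several had too few MN-TRAP counts to be called. At 14 weeks 5 of 15 were called against Chat bacTRAP and 4 of 15 against hTDP-43WT, and at 9 weeks 1 and 1. Over all genes 5.17, 4.67, 0.536 and 2.04% were called lower in this order. At 14 weeks mt-Tv and mt-Tl2 had 0 counts on both sides against Chat bacTRAP. Against hTDP-43WT this held for mt-Tf, mt-Tr and mt-Ts2. The low number of tRNA calls therefore does not show that this class differed from the others. mt-Tp at 14 weeks was at 0.438 to 1.47 CPM in hTDP-43A315T, at 4.86, 6.04, 12.4 and 33.5 CPM in Chat bacTRAP and at 1.75, 6.202, 6.76, 10.5 and 63.3 CPM in hTDP-43WT, with no overlap, and changed by -3.74 (SE 1.04, edgeR adjusted p = 0.0144) and -4.11 (SE 1.03, edgeR adjusted p = 0.011). At 9 weeks the change of mt-Tp was -3.14 (edgeR adjusted p = 0.101) and -2.24 (edgeR adjusted p = 0.284). The lowest called tRNA of each comparison rested on very few counts. mt-Tr had 0 counts in hTDP-43A315T at 14 weeks and 57 in Chat bacTRAP, at least 35.3-fold lower, all 57 in the library labelled replicate 2. mt-Tm had 1 count in the 4 hTDP-43A315T libraries and 153 in hTDP-43WT, where each library held 10 to 65. At 9 weeks mt-Tt had 0 counts in hTDP-43A315T and 23 in Chat bacTRAP, at least 4.34-fold lower, and mt-Tq changed by -5.53 (SE 1.44, 7 counts in hTDP-43A315T and 124 in hTDP-43WT, of which 120 in replicate 2).

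Single libraries carried much of these counts of calls. At 14 weeks 2 of 25 members were called against Chat bacTRAP without its replicate 1 (share 5.81%), and against hTDP-43WT 1 without its replicate 2 (share 5.58%), 8 without hTDP-43A315T replicate 1 and 6 without replicate 4, and 18 without the hTDP-43WT library labelled replicate 5. At 9 weeks the range over single omissions was 0 to 17 against Chat bacTRAP, where 29 of 56 omissions, cord libraries among them, moved the count by more than 1.5-fold. It was 0 without any of the 5 hTDP-43A315T libraries or without Chat bacTRAP replicate 2, and 14 and 17 without Chat bacTRAP replicates 1 and 4. Against hTDP-43WT the range was 0 to 11, with 2, 0, 1, 0 and 1 called without hTDP-43A315T replicates 1 to 5 and 0 without hTDP-43WT replicate 2. Without the 3 libraries that carry Lamr1-ps1 counts 17 and 14 members were called at 9 weeks. The 14 rest on hTDP-43WT replicates 1 and 2 of that age alone, the first with 472447 counts in all. Without the 3 MN-TRAP libraries of highest share 9 were called at 14 weeks and 0 at 9 weeks against Chat bacTRAP. The direction of the share was the same under every single omission, at log2 -3.49 to -2.28 and -3.28 to -1.97 at 14 weeks and -3.06 to -1.21 and -3.46 to -2.10 at 9 weeks, against Chat bacTRAP and hTDP-43WT.

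Between the control genotypes in MN-TRAP, 1 member was called at 14 weeks, mt-Tr, by the same 57 counts of a single library, where 3.78% of all genes were called lower. At 9 weeks it was 0 of 25, with 0.0425% of all genes called lower and 1 member at an unadjusted p below 0.05 in edgeR, and DESeq2 called 1.

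In cord no member was called between genotypes. For hTDP-43A315T against Chat bacTRAP 0 of 25 were called at both ages (0.0212% of all genes at 14 weeks and 0.0372% at 9 weeks in either direction), with 20 and 8 members at an unadjusted p below 0.05 in edgeR and medians of -2.29 and -1.54. Against hTDP-43WT it was 0 (0.0265% and 0.0212%), with 1 and 16 members at an unadjusted p below 0.05 and medians of -1.24 and -1.85. For hTDP-43WT against Chat bacTRAP it was 0 at both ages, also at an unadjusted p below 0.05 (0.00531% and 0.00% of all genes called). DESeq2 called 0 in these comparisons as well. The share in cord at 14 weeks was 1.94-fold lower in hTDP-43A315T than in hTDP-43WT, with no overlap (n = 4 and 5, exact permutation p = 0.00794, the smallest possible, adjusted 0.0333), and 3.39-fold lower than in Chat bacTRAP (n = 4 and 5, exact permutation p = 0.0397, adjusted 0.0833). At 9 weeks the exact permutation p was 0.0606 and 0.0714 (n = 5 and 6, adjusted 0.116 and 0.125) for 2.05-fold and 2.29-fold lower shares. The adjusted p of 0.0333 is lost when any single library is left out, where the log2 difference stayed between -1.06 and -0.73.

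With age, the share rose 2.10-fold from 9 to 14 weeks in hTDP-43A315T MN-TRAP, with no overlap (n = 5 and 4, exact permutation p = 0.00794, the smallest possible, adjusted 0.0333). Omission of any of the 9 libraries left a log2 difference of 0.93 to 1.18 and an adjusted p above 0.05, as fewer libraries cannot reach as small a p. The other 5 comparisons of age had an adjusted p of 0.256 to 0.985, with 3.57-fold in Chat bacTRAP MN-TRAP (n = 4 and 4, exact permutation p = 0.257) as the largest difference. Age was not compared by gene.

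The mixture of mitochondrial RNAs differed between MN-TRAP and cord as well, a measure that does not depend on the total. rRNA genes made up 19.8% ± 6.11 (SD, n = 9) of mitochondrial counts in hTDP-43A315T MN-TRAP and 11.2% ± 3.19 (n = 9) in cord (exact permutation, adjusted p = 0.0109 over 36 tests of composition). It was 24.6% ± 6.98 (n = 8) against 14.6% ± 3.56 (n = 11) in hTDP-43WT (adjusted 0.00857, exact permutation) and 21.2% ± 5.48 (n = 8) against 14.4% ± 3.94 (n = 11) in Chat bacTRAP (adjusted 0.0224, exact permutation). The ranges overlapped in each genotype. Without the 3 libraries below 3000000 counts, of which 2 are Chat bacTRAP, the difference in Chat bacTRAP was 4.21 percentage points (exact permutation, adjusted p = 0.0758). Within the rRNA counts the share of mt-Rnr1 was 40.5 to 43.01% on average in all 6 sets of libraries and differed in none of the genotypes (adjusted p = 0.101 to 0.643 in exact permutation tests).

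tRNA genes made up 0.283% of mitochondrial counts in MN-TRAP and 0.206% in cord of hTDP-43A315T, 0.249% and 0.216% in hTDP-43WT and 0.314% and 0.224% in Chat bacTRAP, differences that did not pass the adjustment (exact permutation, adjusted p = 0.0532, 0.152 and 0.0831). The light strand held 4.26% ± 0.848 of protein and tRNA gene counts in hTDP-43A315T MN-TRAP and 3.35% ± 0.275 in cord (n = 9 and 9, exact permutation, adjusted p = 0.0138). In hTDP-43WT (4.40% and 3.77%, adjusted p = 0.191) and Chat bacTRAP (4.04% and 3.85%, adjusted p = 0.469) it did not pass in the exact permutation test. Almost all of it was mt-Nd6.

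Among the 7 protein genes with at least 1000000 counts, mt-Nd4 took a larger part of protein-gene counts in MN-TRAP in every genotype: 12.9% against 10.6% in hTDP-43A315T, 14.7% against 12.1% in hTDP-43WT and 14.8% against 12.1% in Chat bacTRAP (exact permutation, adjusted p = 0.0462, 0.0356 and 0.0109). mt-Nd5 took a smaller part, 4.49% against 6.22% in hTDP-43A315T and 4.01% against 5.46% in Chat bacTRAP (exact permutation, adjusted p = 0.0287 and 0.0328), and in hTDP-43WT 4.15% against 5.37% (adjusted p = 0.101). For mt-Co1 the difference passed in Chat bacTRAP only, 16.1% against 20.3% (exact permutation, adjusted p = 0.0462). mt-Nd1 (20.6% against 17.6%, adjusted p = 0.0142) and mt-Nd6 (3.98% against 3.19%, adjusted p = 0.0369) passed in hTDP-43A315T only, in the exact permutation test. Without the libraries that carry Lamr1-ps1 counts mt-Nd1 passed in Chat bacTRAP too (adjusted p = 0.0446), and no other call of composition changed. mt-Cytb, at 25.3 to 27.1% in each set, passed in none. Of these 7 genes mt-Nd4, mt-Co1 and mt-Nd2 share 100-base windows with nuclear transcripts. With the protein genes free of shared 50-base windows as the denominator, an alternative chosen after seeing the data, the mt-Nd4 difference had an adjusted p of 0.129 in hTDP-43A315T and 0.0776 in hTDP-43WT, mt-Nd6 in hTDP-43A315T 0.102 and mt-Co1 in Chat bacTRAP 0.0709, in the same exact permutation test. Leaving out single libraries also ended the mt-Nd4 call in hTDP-43A315T in 13 of its omissions, that in hTDP-43WT in 6, the mt-Nd6 call in 10 and the mt-Co1 call in 10.

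**Figure D4:**
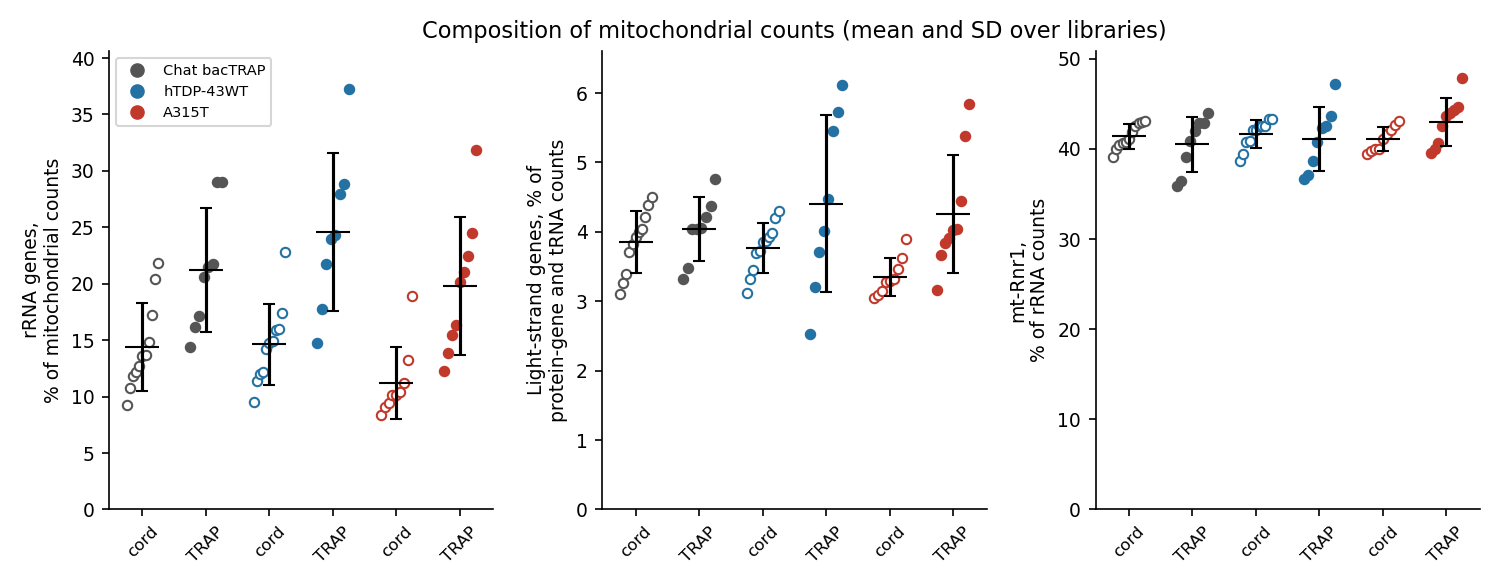
Composition of the mitochondrial counts in cord (open points) and MN-TRAP (filled points) of each genotype, with 1 point per library and bars for mean and SD: rRNA genes as percent of mitochondrial counts, light-strand genes as percent of protein and tRNA gene counts, and mt-Rnr1 as percent of rRNA counts. Mean rRNA shares were 19.8, 24.6 and 21.2% in MN-TRAP and 11.2, 14.6 and 14.4% in cord for hTDP-43A315T, hTDP-43WT and Chat bacTRAP.

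Markers of other cells varied together with the mitochondrial share in MN-TRAP. The summed level of the 10 oligodendrocyte markers was 1529 to 2195 CPM at 9 weeks and 1912 to 2341 CPM at 14 weeks in hTDP-43A315T, against 1583 to 19467 CPM and 3238 to 19430 CPM in Chat bacTRAP and 3285 to 8437 CPM and 2137 to 22003 CPM in hTDP-43WT. In cord it was 19883 to 31577 CPM, and no marker of the list was at 0 in any group. At 14 weeks edgeR called 9 of the 10 lower in hTDP-43A315T than in Chat bacTRAP and 10 of 10 lower than in hTDP-43WT (median log2 changes -1.34 and -1.76), and at 9 weeks 1 and 3. Over all genes tested 5.17, 4.67, 0.536 and 2.04% were called lower in this order. Calls between genotypes for the lists of other cells are not given here. In bulk samples fewer cells of a type and less RNA per cell cannot be told apart.

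The 3 MN-TRAP libraries of highest share, Chat bacTRAP 14 weeks replicate 1 and 9 weeks replicate 2 and hTDP-43WT 14 weeks replicate 2, were also highest in this list, with a mean log2(CPM + 1) of 9.22, 9.21 and 8.99 against 6.24 to 6.61 in hTDP-43A315T. Within hTDP-43WT the log2 share went with the list score at r = 0.94 (n = 8, exact permutation p = 0.000744, adjusted 0.00378 over 66 correlations; rho = 0.95, p = 0.00114, adjusted 0.0166), at 0.91 without the 2 farthest libraries and at 0.96 without those that carry Lamr1-ps1 counts. Within Chat bacTRAP r was 0.95 (n = 8, exact permutation p = 0.000397, adjusted 0.00352; rho = 0.90, p = 0.00456, adjusted 0.0301), 0.90 without the 2 farthest and 0.94 without the library with Lamr1-ps1 counts. Within hTDP-43A315T r was 0.27 (n = 9, exact permutation p = 0.479, adjusted 0.575; rho = 0.18, p = 0.644). Lists of other cells also went with the share. In Chat bacTRAP r was 0.96 for endothelium, 0.94 for astrocyte, 0.91 for blood and 0.85 for skeletal muscle (0.29 without the 2 farthest). In hTDP-43WT r was 0.95 for astrocyte and 0.93 for microglia (each with an adjusted p below 0.05, exact permutation). In hTDP-43A315T endothelium had r = 0.55 (exact permutation, adjusted p = 0.169) and rho = 0.92 (adjusted 0.0166). The remaining r of these lists had an adjusted p above 0.05. In each genotype both ages are pooled, and no group is large enough for a correlation of its own.

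A list of 6 RNAs kept in the nucleus, among them Malat1 and Neat1, had r = 0.84 in hTDP-43A315T with both ages pooled (n = 9, exact permutation p = 0.00778, adjusted 0.0257; rho = 0.83, p = 0.00827) and 0.74 without the 2 farthest. Its summed level in hTDP-43A315T MN-TRAP was 194 to 231 CPM at 9 weeks and 267 to 346 CPM at 14 weeks, so that the ages did not overlap, as for the mitochondrial share. The r and p in hTDP-43A315T therefore cannot separate a relation within an age from the difference between the ages. In Chat bacTRAP r was 0.96 (n = 8, exact permutation p = 0.000273, adjusted 0.00352; rho = 0.86, p = 0.0107), and in hTDP-43WT 0.78 (n = 8, exact permutation p = 0.0179, adjusted 0.0492; rho = 0.64, p = 0.0962). The motor neuron list had r of -0.63, -0.58 and -0.87 in hTDP-43A315T, hTDP-43WT and Chat bacTRAP (exact permutation, n = 9, 8 and 8, adjusted p = 0.116, 0.193 and 0.0176), the last resting on 2 libraries, as it was -0.43 without them. Without the 2 farthest libraries it was 0.037 in hTDP-43WT, and without the libraries that carry Lamr1-ps1 counts it was -0.36 there and -0.91 in Chat bacTRAP. The nuclear RNA list had r of 0.74 and 0.94 in hTDP-43WT and Chat bacTRAP without those libraries. The part of these other RNAs in the mitochondrial differences was not tested.

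**Figure D5:**
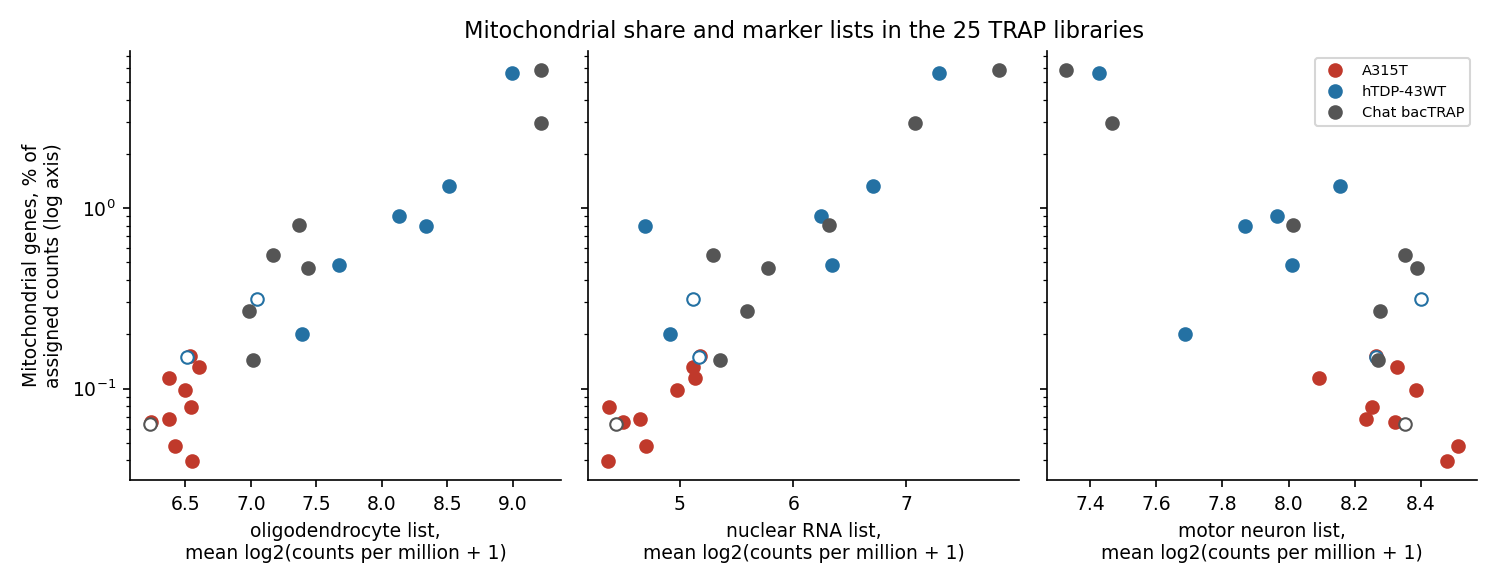
Mitochondrial share (y axis, percent of assigned counts, log axis) against the mean log2(CPM + 1) of the oligodendrocyte, nuclear RNA and motor neuron lists in the 25 MN-TRAP libraries, 1 point per library in the colour of its genotype; open circles are the 3 control libraries with Lamr1-ps1 counts. The 3 libraries above 2.9% are at the right end of the first and second panels and at the left end of the third.

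In cord the oligodendrocyte scores had r of 0.12, -0.04 and -0.25 in hTDP-43A315T, hTDP-43WT and Chat bacTRAP (permutation, adjusted p = 0.855, 0.939 and 0.563, n = 9, 11 and 11). Nuclear RNA scores had r of -0.36, 0.84 and 0.69 (adjusted p = 0.458, 0.00608 and 0.0575, permutation) and motor neuron scores 0.57, -0.59 and -0.77 (adjusted p = 0.169, 0.103 and 0.0243, permutation), in the same order, so that in the controls both had the sign they had in MN-TRAP. Of the other lists, astrocyte (0.85), endothelium (0.78) and blood (-0.81) in hTDP-43WT and endothelium (0.93) and microglia (0.75, 0.44 without the 2 farthest) in Chat bacTRAP had an adjusted p below 0.05 for r in cord (n = 11, permutation). The log2 total count did so in hTDP-43WT cord as well (-0.74, adjusted p = 0.031, permutation). The 12 nuclear-encoded translation factors of mitochondria, among them Tufm and Gfm1, fell as the share rose, at r = -0.95 in Chat bacTRAP (n = 11, 100000 permutations, p = 1e-05, the smallest they can give, adjusted 0.00066; rho = -0.96, with the same p) and -0.94 without the 2 farthest. In hTDP-43WT it was -0.86 (n = 11, p = 0.00064, adjusted 0.00352; rho = -0.75, permutation p = 0.00959; -0.62 without the 2 farthest) and in hTDP-43A315T -0.73 (n = 9, exact permutation p = 0.0253, adjusted 0.0575). In MN-TRAP the relation had the same sign in the controls, at -0.93 in Chat bacTRAP and -0.80 in hTDP-43WT (n = 8, exact permutation, adjusted p = 0.00352 and 0.0403), and r was 0.31 in hTDP-43A315T (n = 9, exact permutation, adjusted p = 0.531).

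Over the 25 MN-TRAP libraries, genes among the 10 nuclear genes whose log2 CPM was most like the log2 mitochondrial CPM, of 10644 with a mean of at least 5 CPM, were Ttyh1 (r = 0.96), Plekhb1 (0.96), Sparc (0.95), Neat1 (0.95), Apln (0.95), Mobp (0.95), Gjc3 (0.94) and Gja1 (0.94). These values describe libraries of all genotypes and share their differences in depth and in glial RNA. Without the 2 libraries of highest share they were 0.91 to 0.94. Over the 31 cord libraries the same genes had r of 0.54 (Mobp) to 0.88 (Gja1). Gja1 is known from astrocytes and Mobp from oligodendrocytes. The 10 rRNA and protein genes tested went with each other at a median r of 0.96 over 45 pairs in MN-TRAP (0.0037 to 0.997) and 0.94 in cord (0.684 to 0.998).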

How the data were processed

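The authors sequenced polyadenylated RNA prepared with the NEBNext Ultra kit, aligned reads with STAR to mm10 (GRCm38) and counted them per gene with featureCounts under standard parameters, and the deposited raw counts of 43629 genes in 56 libraries were used. The deposited normalized values equal these counts divided by 1 constant per library in 56 of 56 libraries and were not used. Groups came from the labels. Ensembl IDs were matched to symbols (42462 with and 1167 without one). The members and gene lists were chosen with earlier results of these data known.

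Genes were tested with edgeR 4.0.16 (R 4.3.3, limma 3.58.1), TMM factors and the quasi-likelihood test in 1 model of 12 groups, after the filter on low counts (18838 genes). The SE of a gene is its absolute log2 change divided by the square root of the F statistic of that test. DESeq2 1.42.0 was an alternative, beside median-ratio factors, no filter, each fraction alone, a replicate block and omitted libraries. Leaving out libraries below 3000000 counts, using only genes free of shared 50-base windows, and leaving out the libraries with Lamr1-ps1 counts for composition were chosen after seeing the data. The edgeR fit and the exact permutation test of group means were tested on simulated data. Shares and compositions were compared by exact two-sided permutation tests and marker scores (mean log2(CPM + 1)) by permutation (100000 draws where n was above 9), with Python 3.11.15, numpy 2.4.6, pandas 2.3.3, scipy 1.17.1 and matplotlib 3.10.9. CPM is per 1000000 counts assigned to genes, and its precision is set by the totals given above. Sequences came from GENCODE M21 transcripts, with nuclear transcripts searched for exact windows of 50, 75 and 100 bases, since no genome was used. Named are both rRNA genes, the 4 protein and 3 tRNA genes of highest mean CPM, mt-Nd6, the member of each class with the largest change among those called in each comparison, the 10 nuclear genes most like the mitochondrial total (some of which are not reported here), and up to 3 list genes of smallest p. Other members named, such as mt-Nd5, were chosen after their values were seen. The planned composition over 13 protein genes was limited to the 7 with at least 1000000 counts.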

Additional observations from a re-analysis of the deposited data

Results flagged for a closer look

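In groups of 4 to 10 libraries, a library was noted where its gap to the nearest of the others was large against the whole range of the group (Dixon's 95% value). This held in 24 of 88 sets of values (8 measures in 11 groups). Chance gives about 1 in 20 for normally distributed values. The percentages and CPM were not logged here and mostly stood out on the high side, so that 24 of 88 cannot be set against that rate. The 8 measures are not independent of each other.

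Chat bacTRAP MN-TRAP 14 weeks replicate 1 was far above its group in mitochondrial share (5.81%), mt-Cytb (14630.5 CPM) and mt-Nd6 (1899 CPM). Chat bacTRAP MN-TRAP 9 weeks replicate 2 was so in share (2.98%), mt-Cytb (6241 CPM), mt-Rnr2 (3762 CPM), mt-Tp (33.9 CPM) and mt-Nd6 (884 CPM). hTDP-43WT MN-TRAP 14 weeks replicate 2 was so in share (5.58%), mt-Cytb (10594 CPM), mt-Rnr2 (9233 CPM), mt-Tp (63.3 CPM) and mt-Nd6 (2078 CPM).

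In cord, hTDP-43WT 9 weeks replicate 4 had a share of 10.1%, mt-Cytb at 20896 CPM, mt-Rnr2 at 10676 CPM and mt-Tp at 87.9 CPM, and mt-Rnr1 made up 39.4% of its rRNA counts, the lowest of its group. hTDP-43WT 14 weeks replicate 3 had a share of 5.27% and mt-Cytb at 12058 CPM.

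In hTDP-43A315T, where shares varied little, cord 9 weeks replicate 2 was apart in rRNA genes as percent of mitochondrial counts (13.2%), MN-TRAP 14 weeks replicate 1 in the light-strand percent of protein and tRNA gene counts (5.38%), cord 14 weeks replicate 4 in mt-Tp (14.6 CPM) and MN-TRAP 9 weeks replicate 1 in mt-Tp (2.64 CPM).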

How the results depend on the processing

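The causes of the changes below were not tested. The number of members called was within 1.5 times the first value in all 18 comparisons with median-ratio factors. With no filter it was 2 for hTDP-43WT against Chat bacTRAP in MN-TRAP at 14 weeks and 0 for hTDP-43A315T against Chat bacTRAP at 9 weeks. With MN-TRAP alone it was 0 in the 5 genotype comparisons that had calls. DESeq2 called 17 for hTDP-43A315T against Chat bacTRAP and 1 for hTDP-43WT against Chat bacTRAP at 9 weeks, and 2 and 1 for the same pairs in the interaction. Same-numbered libraries did not deviate together (r -0.28 to 0.18 in 25 pairs, 5 above 0.1, 6 best with their own number), so that the numbers are not known to pair them. With the replicate block the count was 0 for hTDP-43A315T against Chat bacTRAP and 0 against hTDP-43WT at 9 weeks, and no other count of members moved by over 1.5 times.

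Without the 3 MN-TRAP libraries of highest share, 25 members were called between MN-TRAP and cord in hTDP-43WT, 9 and 0 for hTDP-43A315T against Chat bacTRAP at 14 and 9 weeks and 1 for hTDP-43WT against Chat bacTRAP at 9 weeks, and the tRNA percent in Chat bacTRAP was 0.128 points higher in MN-TRAP (adjusted p = 0.0268, exact permutation). Without the 3 libraries that carry Lamr1-ps1 counts the counts were 8 between MN-TRAP and cord in hTDP-43WT, 2 for hTDP-43WT against Chat bacTRAP at 14 weeks, 17 and 14 for hTDP-43A315T against Chat bacTRAP and hTDP-43WT at 9 weeks and 1 and 9 in the interaction, and the log2 share differences were -1.62 (MN-TRAP over cord, hTDP-43WT) and 0.18 (hTDP-43WT against Chat bacTRAP at 14 weeks). In that setting hTDP-43WT at 9 weeks kept MN-TRAP replicates 1 and 2 only. Without the 3 libraries below 3000000 counts, mt-Tr was no longer called between the controls at 14 weeks (0), and in Chat bacTRAP the rRNA, protein-gene and mt-Rnr1 percentages differed by 4.21, -4.24 and 0.55 points. The log2 difference of age in hTDP-43WT cord was -0.0024 over nuclear counts and -0.11 over members free of shared windows, and that of mt-Nd2 in hTDP-43A315T was -0.64 points over protein genes free of shared windows.

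Over single omissions, the members called between MN-TRAP and cord ran from 9 (without hTDP-43WT cord 9 weeks replicate 4) to 25 (without MN-TRAP 14 weeks replicate 2) in hTDP-43WT and from 10 (without MN-TRAP 9 weeks replicate 4) to 23 (without replicate 2) in Chat bacTRAP. At 14 weeks they ran from 2 to 16 for hTDP-43A315T against Chat bacTRAP, from 1 to 18 against hTDP-43WT and from 0 to 3 for the controls, at 9 weeks from 0 to 17 and from 0 to 11 for hTDP-43A315T against Chat bacTRAP and hTDP-43WT, and from 0 to 1 in the interaction against Chat bacTRAP. Log2 share differences ran from 0.93 to 1.18 for age in hTDP-43A315T MN-TRAP, -0.25 to 0.39 for age in hTDP-43WT cord, -1.06 to -0.73 for hTDP-43A315T against hTDP-43WT in cord at 14 weeks, and for hTDP-43WT against Chat bacTRAP -0.22 to 0.42 in cord at 9 weeks and -1.13 to 0.40 and -0.23 to 1.69 in MN-TRAP at 14 and 9 weeks. Differences in percentage points ran from -1.44 to 0.071 for mt-Rnr1 and 0.39 to 0.90 for the light strand in hTDP-43WT, and for tRNA genes from 0.048 to 0.093 in hTDP-43A315T and 0.031 to 0.114 in Chat bacTRAP.

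The library with 472447 counts held 945 mitochondrial counts, which limits the precision of its composition.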
